A study of Mus musculus with 23 samples.

Results

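The secreted products of intestinal goblet cells are represented here by 10 genes, chosen by symbol as known goblet cell products and all found among the 22517 named genes of both deposited expression tables. They are Muc2, Fcgbp, Clca3, Agr2, Tff3, Zg16, Retnlb, Spink4, Klk1 and Guca2a. Their levels were compared in 3 groups of 3 RNA libraries from the proximal intestine of adult mice of mixed B6;129 background. The Eed-null villus libraries are of genotype EedF/F; Villin-CRE, in which Villin drives a Cre recombinase across the intestinal epithelium and floxed Eed is removed. The wild-type villus libraries are of genotype EedF/F; Cre-, with the floxed alleles but without Cre, so that Cre and loss of Eed cannot be told apart. ISC are intestinal stem cells sorted for high GFP from mice with intact Eed that carry an EGFP and CreERT2 reporter at Lgr5 (Eed+/+; Lgr5-EGFP-IRES-CREERT2). Mice of all 3 groups received 1 to 2 mg of tamoxifen on 5 days, which activates the inducible Cre. Eed belongs to the core of PRC2, the Polycomb complex that methylates histone H3 at K27.

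The tables hold the authors' RPKM, a read count scaled by gene length and by mapped reads, with 1 value per group and gene. The spread among the 3 libraries of a group and the depth are therefore unknown, and no SD stands beside any value. The only measure of error is the authors' q, a p-value adjusted over all tested genes, and a gene is called where it was tested and q was at or below 0.05. Eed itself, counted over the whole gene, had 3.00 RPKM in Eed-null villus and 9.17 RPKM in wild-type villus and was called lower. Lgr5 stood at 0.607 RPKM in wild-type villus and 18.3 RPKM in ISC, and the brush-border phosphatase Alpi at 1146 RPKM in wild-type villus and 15.8 RPKM in ISC. The lysozyme gene Lyz1, a marker of the Paneth cells of the crypt, had 1021 RPKM in wild-type villus. The tissue of all 3 groups was treated with 5 mM EDTA for 45 minutes at 4 °C. Villus cells were then frozen, whereas ISC were further dissociated with an enzyme for 45 minutes at 37 °C and sorted. Handling, genotype and cell type therefore cannot be told apart in the comparison of wild-type villus with ISC. In bulk RNA, a different number of goblet cells and a different amount of RNA per goblet cell cannot be told apart either, whether a level is higher or lower.

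Goblet cells are secretory cells of crypt and villus that arise, like Paneth, enteroendocrine and tuft cells, from progenitors in which Notch signalling is low and the transcription factor Atoh1 is active. They store mucin in large apical granules and release it as the gel that separates microbes from the epithelium. Muc2 is the gel-forming mucin of the intestine, Agr2 is a protein disulfide isomerase of the endoplasmic reticulum needed for its folding in mice, and Fcgbp and Clca3 are secreted into the gel with it. Clca3, also known as Gob-5, is a metalloprotease that can cleave Muc2, and its current RefSeq symbol is Clca1. The entry named Clca1 in the deposited tables is another gene of the same family. Tff3 is a trefoil peptide that protects and helps to reseal the mucosa. Zg16 is a lectin-like protein that binds Gram-positive bacteria, and Retnlb, resistin-like molecule beta, is an antibacterial protein. Spink4 belongs to the Kazal-type protease inhibitors, Klk1 is tissue kallikrein, a serine protease, and Guca2a encodes guanylin, the peptide ligand of the guanylate cyclase Gucy2c.

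RefSeq promoter windows on build GRCm38.p6 were found for 5 of the 10 genes, namely Muc2, Agr2, Klk1, Fcgbp and Guca2a. The 250 bases before the start site are shown for the genes Muc2, Agr2 and Klk1, whose levels kept nearly the same proportions in all 3 groups, and for Guca2a, whose level relative to Muc2 varied. Capitals mark matches to the sequences searched for.

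Muc2, chr7:141690090-141690339, + strand: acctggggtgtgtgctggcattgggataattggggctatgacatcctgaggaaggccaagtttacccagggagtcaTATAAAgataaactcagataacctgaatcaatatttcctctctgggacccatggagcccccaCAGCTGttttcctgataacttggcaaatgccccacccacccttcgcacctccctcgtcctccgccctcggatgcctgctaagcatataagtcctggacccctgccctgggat
Agr2, chr12:35992675-35992924, + strand: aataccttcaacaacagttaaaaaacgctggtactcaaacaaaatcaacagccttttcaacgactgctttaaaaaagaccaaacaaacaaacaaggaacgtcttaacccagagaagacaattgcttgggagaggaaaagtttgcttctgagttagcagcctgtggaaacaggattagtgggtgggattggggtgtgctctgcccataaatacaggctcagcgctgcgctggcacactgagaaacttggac
Klk1, chr7:44225110-44225359, + strand: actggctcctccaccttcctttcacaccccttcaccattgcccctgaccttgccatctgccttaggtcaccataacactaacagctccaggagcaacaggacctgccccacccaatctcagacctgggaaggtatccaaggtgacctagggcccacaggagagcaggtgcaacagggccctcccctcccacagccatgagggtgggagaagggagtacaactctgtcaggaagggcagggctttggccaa
Guca2a, chr4:119637482-119637731, + strand: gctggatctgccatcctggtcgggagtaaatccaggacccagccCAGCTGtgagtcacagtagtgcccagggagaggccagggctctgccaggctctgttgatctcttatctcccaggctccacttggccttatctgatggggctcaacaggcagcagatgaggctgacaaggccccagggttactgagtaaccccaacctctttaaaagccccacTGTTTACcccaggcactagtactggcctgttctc

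The sequences searched for on both strands of the full windows of 300 bases were the TATA box TATAAA, the E-box CAGCTG of the kind bound by bHLH factors such as Atoh1, the forkhead core TGTTTAC, and the STAT6 motif of TTC and GAA spaced by 4 bases, none of which overlapped another in these windows. CAGCTG occurred in 3 of the 5 windows, at position -112 from the start site in Muc2, -206 in Guca2a and -208 in Fcgbp, and it reads the same on both strands. It was found in 16.3% of all 32851 windows. TATAAA occurred in Muc2, at position -174, and in 13.6% of all windows. TGTTTAC occurred in Guca2a, at position -34, and in 3.65% of all windows. The STAT6 motif occurred in none of the 5 and in 6.95% of all windows, so its absence from so few windows is near that share. No window was available for Retnlb or Clca3. The windows of Agr2 and Klk1 held no match to any of the sequences. The ratio of observed to expected CpG was 0.0372 in Klk1, 0.0423 in Guca2a, 0.268 in Muc2, 0.274 in Fcgbp and 0.419 in Agr2, against a median of 0.384 over all windows, so only the window of Agr2 lay above the median.

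Some of these genes are among the most abundant of all named genes per length. Zg16 had rank 7 by RPKM in Eed-null villus, rank 8 in wild-type villus and rank 321 in ISC. Tff3 had rank 8 in Eed-null villus, rank 12 in wild-type villus and rank 47 in ISC. Spink4 had rank 14 in Eed-null villus, rank 42 in wild-type villus and rank 8 in ISC. Retnlb had rank 540 in Eed-null villus, against rank 5940 in wild-type villus and rank 9437 in ISC, where it was the least abundant of the 10 genes. Whether genes next to each other in this order differ in level cannot be told without a spread between libraries.

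**Figure D1:**
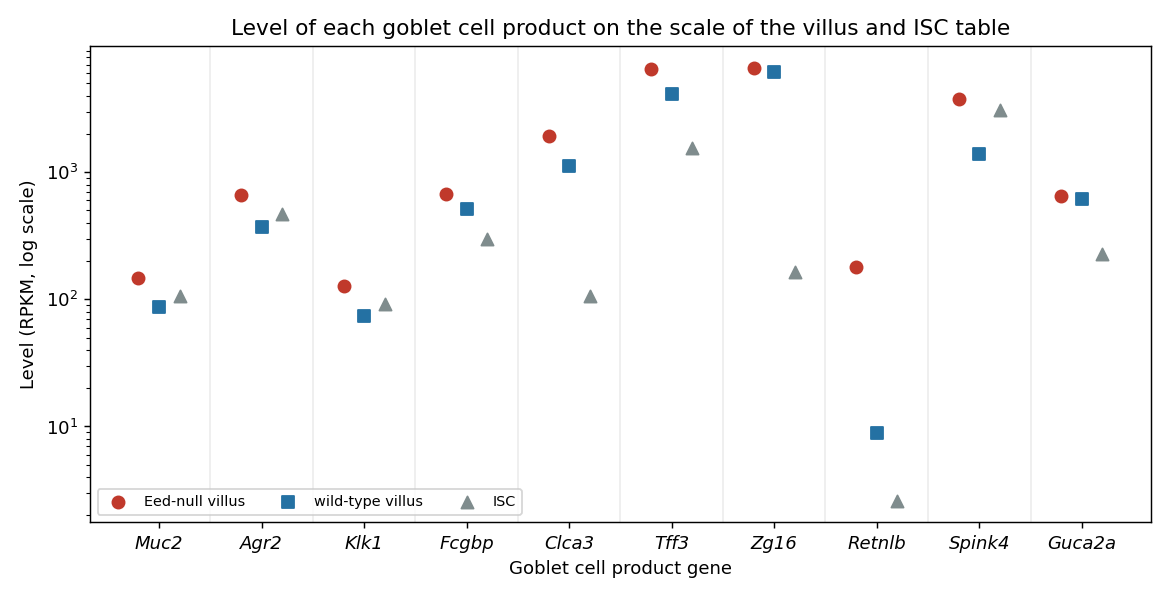
Level in RPKM (log axis) of each of the 10 goblet cell products in Eed-null villus (circles), wild-type villus (squares) and ISC (triangles), 1 deposited value per group, with the Eed-null values multiplied by 1.16 to bring both tables to 1 scale. Retnlb stands at 179 RPKM in Eed-null villus, far above its 8.90 RPKM in wild-type villus and 2.61 RPKM in ISC, while Zg16 is at 6649 RPKM in Eed-null villus, 6105 RPKM in wild-type villus and 165 RPKM in ISC.

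In Eed-null villus 5 of the genes rose, none fell at any unadjusted p under 0.05, and all 10 had a higher value there than in wild-type villus. Retnlb stood apart with a 20.1-fold rise. Spink4 rose 2.69-fold, and Agr2, Klk1 and Muc2 rose between 1.68-fold and 1.78-fold. With at least 2-fold required besides q, Retnlb and Spink4 alone were called, 2 in place of 5. Under the same requirement 808 of all 12525 tested genes were called higher, in place of 989. The 5 called of 10 stand beside 7.9% of all 12525 tested genes called higher and 3.46% called lower. Among tested genes with 10 RPKM or more in either group, 5.02% were called higher. The median log2 ratio of the 10 genes was 0.76, against -0.08 over all tested genes, and all 10 ratios were above 1, as were 42.3% of all tested genes. The median log2 ratio was -0.10 over the 10048 genes with a level of at least 1 RPKM in each group, and relative to it the median of the 10 genes was 0.87.

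Retnlb had 154 RPKM in Eed-null villus and 7.66 RPKM in wild-type villus, and the authors' deposited table lists its q as 0. Its locus lies between 48816968 and 48819005 on chromosome 16 of build mm9. Its log2 ratio of 4.33 exceeded that of 99.1% of tested genes. Spink4 had 3242 RPKM in Eed-null villus and 1204 RPKM in wild-type villus, a log2 ratio of 1.43, and the authors' deposited table gives q = 2.7e-07. The Spink4 locus lies between 40867088 and 40878428 on chromosome 4. The level of Spink4 in Eed-null villus, brought to the scale of the other table, was 3767 RPKM and thus nearer to its 3089 RPKM in ISC than to its 1399 RPKM in wild-type villus, although no test spans the tables.

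Muc2, Agr2 and Klk1 rose by smaller factors. Muc2 had 127 RPKM in Eed-null villus and 75.3 RPKM in wild-type villus, a ratio of 1.68. The authors' deposited table gives q = 0.0346 for Muc2, the q closest to the threshold among the called genes. Agr2, the folding enzyme, had 567 RPKM in Eed-null villus and 320 RPKM in wild-type villus, and the authors' deposited table gives q = 0.00534. Klk1, the kallikrein, had 110 RPKM in Eed-null villus and 64.2 RPKM in wild-type villus, and the authors' deposited table gives q = 0.00983. Klk1 has close relatives in the Klk1b genes beside it, so reads may be shared among them, and Klk1b22, the most abundant of those listed, had 4.23 RPKM in Eed-null villus and 3.35 RPKM in wild-type villus. Muc2 lies between 148876260 and 148940598 and Klk1 between 51480806 and 51484987 on chromosome 7 of build mm9, and Agr2 between 36719511 and 36730668 on chromosome 12.

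The other genes did not pass the test, with values in Eed-null villus between 1.05 and 1.71 times those in wild-type villus. Clca3 had 1654 RPKM in Eed-null villus and 966 RPKM in wild-type villus, and the authors' deposited table gives q = 0.193, although its ratio of 1.71 was close to the 1.72 of Klk1 and the 1.68 of Muc2. Tff3 had 5538 RPKM in Eed-null villus and 3551 RPKM in wild-type villus, and the authors' deposited table gives q = 0.145. Both are abundant products, and their values pointed the same way as those of the called genes. Fcgbp, the mucus protein, had 576 RPKM in Eed-null villus and 440 RPKM in wild-type villus. Zg16 had 5723 RPKM in Eed-null villus and 5254 RPKM in wild-type villus, and Guca2a had 555 RPKM in Eed-null villus and 531 RPKM in wild-type villus. The authors' deposited table gives q = 0.647 for Fcgbp, q = 0.916 for Zg16 and q = 0.946 for Guca2a.

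These p-values leave room for sizeable differences. If the p-values in the authors' deposited table came from a two-sided normal test of the log2 ratio, which the sources used here do not state, the 95% interval of the ratio would run from 0.764 to 1.43 for Guca2a and from 0.695 to 1.71 for Zg16. On the same assumption it would run from 0.788 to 2.17 for Fcgbp, from 1.06 to 2.29 for Tff3 and from 1.03 to 2.83 for Clca3, before any adjustment for the number of genes. The intervals of Muc2, from 1.19 to 2.39, and of Clca3 and Tff3 overlap widely, so a call for Muc2 and none for Clca3 or Tff3 is not shown to be a difference between these genes.

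**Figure D2:**
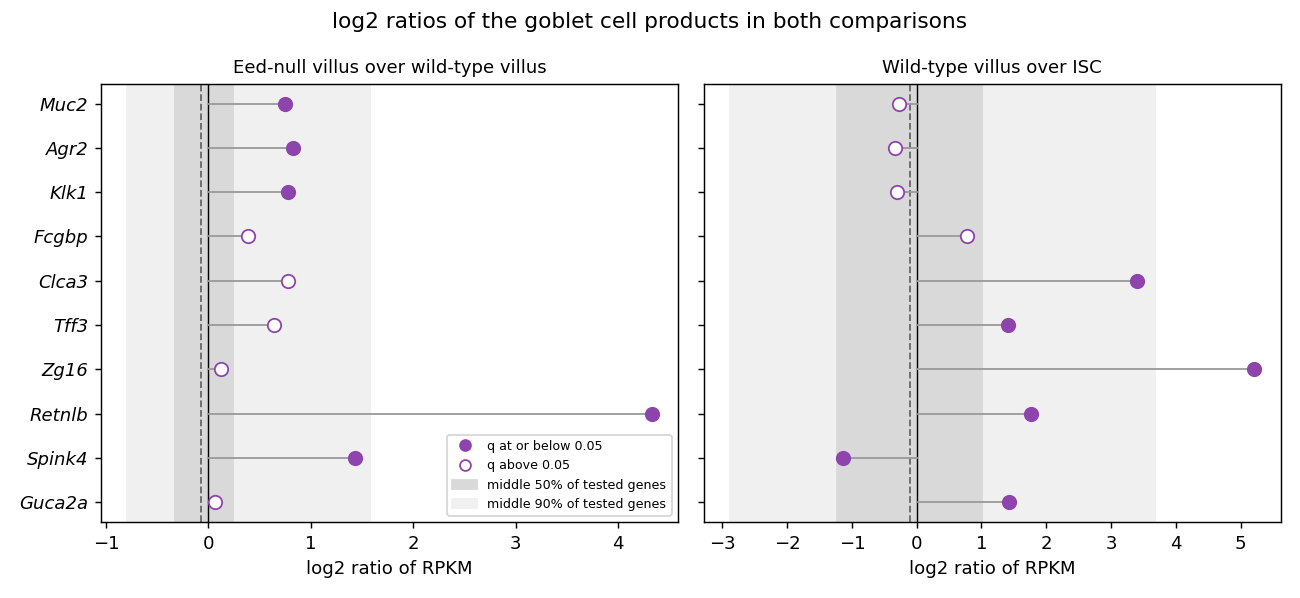
log2 ratio of RPKM of each goblet cell product, Eed-null villus over wild-type villus (left) and wild-type villus over ISC (right), with filled points for q at or below 0.05, a dashed line at the median of all tested genes and grey bands for the middle 50% and 90% of tested genes. On the left every point lies above 0 and Retnlb lies at 4.33, and on the right the points run from -1.14 for Spink4 to 5.21 for Zg16.

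Wild-type villus and ISC differed in these genes in both directions. Zg16, Clca3, Retnlb, Guca2a and Tff3 were higher in wild-type villus, Spink4 was lower, and Muc2, Agr2, Klk1 and Fcgbp were not called. The 5 called higher and 1 called lower of 10 stand beside 30.5% and 32.3% of all 13007 tested genes, so a call in this comparison was frequent among all genes. Among tested genes with 10 RPKM or more in either group 43% were called higher and 28.1% lower, so the 5 called higher are near that share. The median log2 ratio of the 10 genes was 1.10, against -0.10 over all tested genes.

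Zg16, the lectin, had 6105 RPKM in wild-type villus and 165 RPKM in ISC, a level 37.0 times as high in wild-type villus. Clca3, the mucus metalloprotease, had 1123 RPKM in wild-type villus and 107 RPKM in ISC, a level 10.5 times as high in wild-type villus, and the authors' deposited table lists a q of 0 for each. Among the other genes that were higher, Retnlb had 8.90 RPKM in wild-type villus and 2.61 RPKM in ISC, and the authors' deposited table gives q = 0.00128. Guca2a had 617 RPKM in wild-type villus and 229 RPKM in ISC, and the authors' deposited table gives q = 1.67e-09. The trefoil gene Tff3 had 4127 RPKM in wild-type villus and 1547 RPKM in ISC, and the authors' deposited table gives q = 1.45e-06. Guca2a and Tff3 thus differed by nearly the same factor, 2.69 and 2.67. On build mm9, Zg16 lies between 134193669 and 134195491 on chromosome 7, Clca3 between 144667500 and 144695740 on chromosome 3, Guca2a between 119310336 and 119312070 on chromosome 4, and Tff3 between 31262250 and 31266556 on chromosome 17.

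Spink4 alone of the 10 was called lower in wild-type villus, with 1399 RPKM there and 3089 RPKM in ISC, and the authors' deposited table gives q = 8.49e-05. The genes that were not called were well expressed in both groups. Muc2 had 87.5 RPKM in wild-type villus and 106 RPKM in ISC, and the authors' deposited table gives q = 0.437. Agr2 had 371 RPKM in wild-type villus and 469 RPKM in ISC, and Klk1 had 74.6 RPKM in wild-type villus and 92.4 RPKM in ISC. The authors' deposited table gives q = 0.214 for Agr2 and q = 0.247 for Klk1. Fcgbp, which lies between 28856254 and 28905883 on chromosome 7 of build mm9, had 512 RPKM in wild-type villus and 297 RPKM in ISC, and the authors' deposited table gives q = 0.149. On the normal assumption stated above, the 95% interval of the ratio of wild-type villus to ISC would be 0.550 to 1.24 for Muc2, 0.573 to 1.10 for Agr2, 0.587 to 1.11 for Klk1 and 0.891 to 3.33 for Fcgbp.

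Set side by side, 2 of the 5 genes called in Eed-null villus were also called between wild-type villus and ISC. Of all tested genes, 30.5% were called higher and 32.3% lower between wild-type villus and ISC. In Eed-null villus the shares were 7.9% and 3.46%, and nothing is read from the overlap of calls. Muc2, Agr2 and Klk1 were called higher in Eed-null villus and not called between wild-type villus and ISC. Tff3, Clca3, Zg16 and Guca2a were called higher in wild-type villus than in ISC and not called between Eed-null and wild-type villus. Retnlb was called higher in both comparisons, Spink4 was higher in Eed-null villus and lower in wild-type villus than in ISC, and Fcgbp was called in neither. The wild-type villus libraries enter both comparisons, so the ratios are not independent and no overlap was tested.

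The proportions among the genes differed between the groups. Relative to Muc2, Klk1 stood at 0.870 in Eed-null villus, 0.852 in wild-type villus and 0.873 in ISC. Agr2 stood at 4.48 times Muc2 in Eed-null villus, 4.24 times in wild-type villus and 4.43 times in ISC, so these 3 genes kept nearly the same proportions. The ratio of Zg16 to Muc2 was 45.2 in Eed-null villus, 69.8 in wild-type villus and 1.56 in ISC. The ratio of Clca3 to Muc2 was 13.1 in Eed-null villus, 12.8 in wild-type villus and 1.01 in ISC. The ratio of Spink4 to Muc2 was 25.6 in Eed-null villus, 16.0 in wild-type villus and 29.2 in ISC. Retnlb stood at 1.21 times Muc2 in Eed-null villus, 0.102 times in wild-type villus and 0.0247 times in ISC. These ratios are of levels per length within a group and do not depend on how the tables were scaled, but they carry no error and were not tested.

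**Figure D3:**
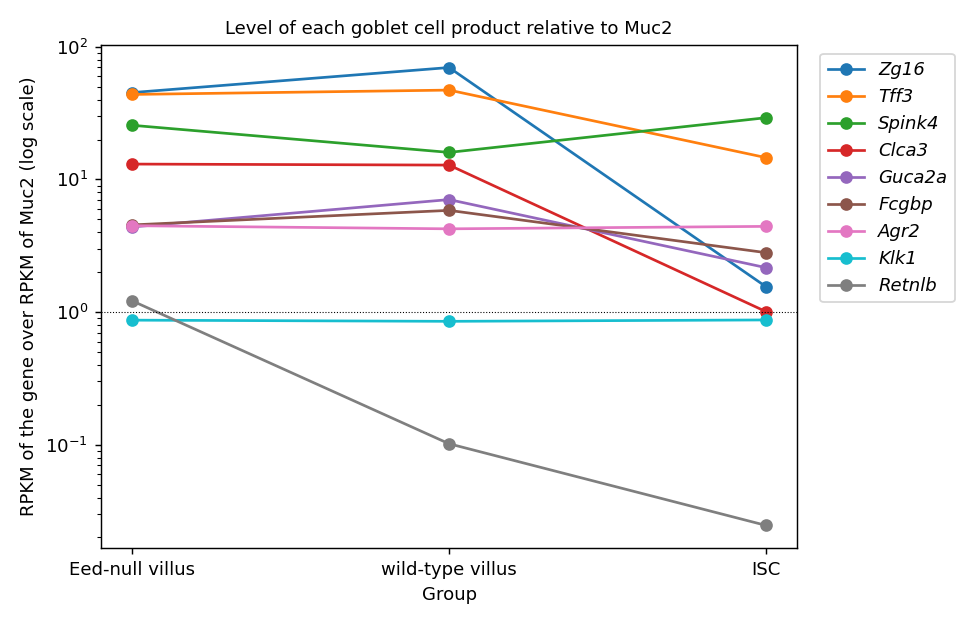
RPKM of each goblet cell product divided by the RPKM of Muc2 in the same group (log axis), for Eed-null villus, wild-type villus and ISC, with lines joining the 3 values of a gene. The lines of Agr2 and Klk1 are nearly flat, that of Retnlb stands above 1 only in Eed-null villus, and those of Zg16 and Clca3 are lowest in ISC.

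Summed over the 10 genes, the level was 18246 RPKM in Eed-null villus and 12414 RPKM in wild-type villus of the same table. In the other table it was 14424 RPKM in wild-type villus and 6104 RPKM in ISC. The 10 genes made up 3.64% of the summed RPKM of all genes in Eed-null villus, 2.42% in wild-type villus and 1.37% in ISC. The totals of all genes are incomplete, since 3 genes in Eed-null villus, 2 in wild-type villus and 7 in ISC are listed at 0 with a status that marks too much data or a failed fit. Zg16 made up 31.4% of the sum of the 10 genes in Eed-null villus, 42.3% in wild-type villus and 2.70% in ISC. Spink4 made up 17.8% in Eed-null villus, 9.70% in wild-type villus and 50.6% in ISC, where it was the leading product. Tff3 made up between 25.3% and 30.4% in all 3 groups.

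**Figure D4:**
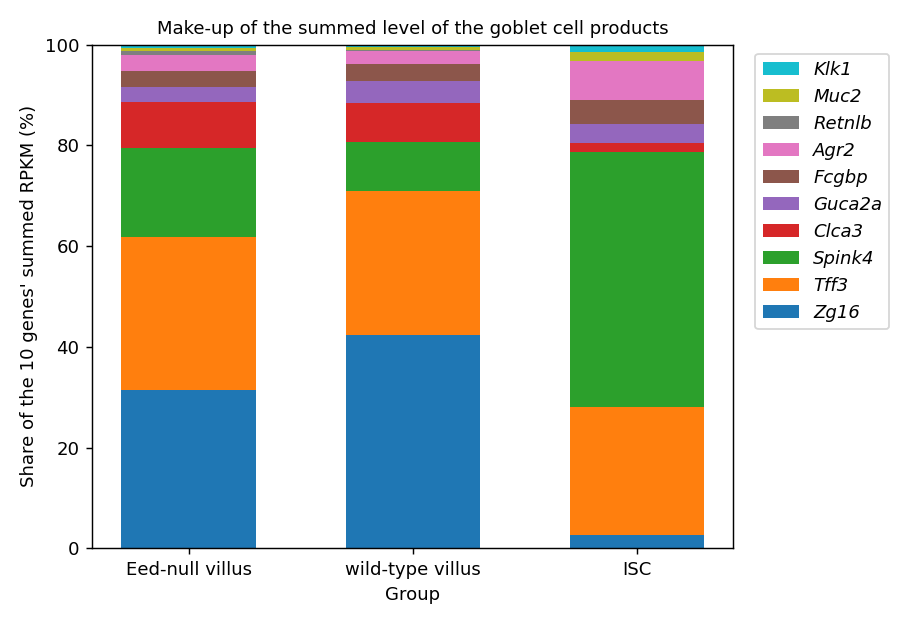
Share in percent of each goblet cell product in the summed RPKM of the 10 genes, stacked, for Eed-null villus, wild-type villus and ISC. Zg16 and Tff3 together take most of the bar in both villus groups, and Spink4 takes 50.6% of the bar in ISC.

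Transcription factors of the goblet lineage were described from a list of 10 genes, all tested in both comparisons. In Eed-null villus 2 were called higher and none lower, beside 7.9% and 3.46% of all tested genes, so a count of 0 lower is near that share. No factor had an unadjusted p under 0.05 in the lower direction. Of the 10 factors 8 had ratios above 1, with a median log2 ratio of 0.69 against -0.08 over all tested genes. Atoh1, the factor that starts the secretory lineage, had 13.6 RPKM in Eed-null villus and 7.79 RPKM in wild-type villus, and the authors' deposited table gives q = 0.0234. Spdef, which drives goblet and Paneth cell maturation, had 15.2 RPKM in Eed-null villus and 9.04 RPKM in wild-type villus, and the authors' deposited table gives q = 0.0399. Klf4, a zinc finger factor of goblet cells and of the differentiated epithelium, had 149 RPKM in Eed-null villus and 106 RPKM in wild-type villus, and the authors' deposited table gives q = 0.203. Foxa1, with 2.74 RPKM in Eed-null villus and 3.05 RPKM in wild-type villus, and Hes6 were the factors with ratios below 1, and neither was called.

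Between wild-type villus and ISC the same factors were called lower in 6 cases and higher in 1 of 10, beside 32.3% and 30.5% of all tested genes. Klf4 was the factor called higher, with 123 RPKM in wild-type villus and 23.3 RPKM in ISC. Spdef had 10.5 RPKM in wild-type villus and 17.8 RPKM in ISC, and Foxa2, Foxa1, Foxa3, Creb3l1 and Creb3l4 were lower by 2.33-fold to 6.16-fold in wild-type villus. Creb3l1 and Creb3l4 are membrane-bound factors released by proteolysis. Atoh1 had 9.06 RPKM in wild-type villus and 7.40 RPKM in ISC, and the authors' deposited table gives q = 0.367. Gfi1 and Hes6 were likewise not called. The median log2 ratio of the list was -0.99.

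Genes that build, glycosylate and package mucin were listed in 28 cases, of which 27 were tested. Of these, 6 were called higher in Eed-null villus and none lower, with none lower at an unadjusted p under 0.05 either, and the median log2 ratio was 0.47. Of all tested genes 7.9% were called higher and 3.46% lower, so a count of 0 lower is near that share. The glycosyltransferases Gcnt1 and Fut2 rose most. Gcnt1, which branches mucin O-glycans, had 4.96 RPKM in Eed-null villus and 0.483 RPKM in wild-type villus. Fut2, a fucosyltransferase, had 33.1 RPKM in Eed-null villus and 3.63 RPKM in wild-type villus. Rep15, a Rab15 effector, had 45.7 RPKM in Eed-null villus and 17.4 RPKM in wild-type villus. The sialyltransferase St3gal6 had 76.7 RPKM in Eed-null villus and 33.5 RPKM in wild-type villus. Gcnt3 and Sytl2 were the other genes called higher, at 1.71-fold and 1.82-fold. Between wild-type villus and ISC, 12 of the 27 tested genes of this list were called higher and 6 lower, beside 30.5% and 32.3% of all tested genes, led by B3gnt6, a glycosyltransferase, with 1.33 RPKM in wild-type villus and 0.100 RPKM in ISC. Ern2, the stress sensor of goblet cells, was lower, with 6.27 RPKM in wild-type villus and 11.0 RPKM in ISC.

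Of 25 listed relatives of the goblet cell products, 9 were tested in Eed-null villus. By the authors' q none was called, near the 7.9% of all tested genes called higher and 3.46% called lower. The unadjusted p was under 0.05 for 0 higher and 3 lower, with a median log2 ratio of -0.42. Guca2b, which encodes uroguanylin and lies 17.1 kb from Guca2a, had 1388 RPKM in Eed-null villus and 1834 RPKM in wild-type villus, and the authors' deposited table gives q = 0.411. Spink3, a trypsin inhibitor, had 3186 RPKM in Eed-null villus and 3242 RPKM in wild-type villus. Retnla and Retnlg, the closest relatives of Retnlb, were at or below 0.329 RPKM in every group and were not tested. The trefoil gene Tff1 is listed at 0 in every group, and Tff2 had 0.618 RPKM in Eed-null villus and 0.184 RPKM in wild-type villus. Agr3, the relative of Agr2, had 0.835 RPKM in Eed-null villus and 1.65 RPKM in wild-type villus. Among other mucin genes 8 of 10 were listed and 3 tested, and Muc4, a membrane mucin that shares its locus entry with another gene, was called higher, at 2.90 RPKM in Eed-null villus and 1.59 RPKM in wild-type villus. The membrane mucin Muc13 had 829 RPKM in Eed-null villus and 622 RPKM in wild-type villus, and the authors' deposited table gives q = 0.525. The gel-forming mucin genes Muc5ac, Muc5b and Muc6 of other organs were at or below 0.119 RPKM in all groups.

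Between wild-type villus and ISC the relatives divided further. Clca6 had 263 RPKM in wild-type villus and 0.563 RPKM in ISC, whereas Clca4 had 32.2 RPKM in wild-type villus and 600 RPKM in ISC, both under the names of the deposited tables. Guca2b had 2131 RPKM in wild-type villus and 120 RPKM in ISC, a 17.7-fold excess beside the 2.69-fold excess of Guca2a, a difference that was not tested. Agr3 had 1.91 RPKM in wild-type villus and 11.9 RPKM in ISC. Genes of guanylin signalling were called higher in wild-type villus in 8 of 9 cases and lower in 1. Of all tested genes 30.5% were called higher in this comparison and 32.3% lower. By the authors' q none of the 9 was called in Eed-null villus, and 0 had an unadjusted p under 0.05. Their median log2 ratio there was -0.28. With 7.9% of all tested genes called higher there and 3.46% lower, a count of 0 of 9 is near those shares. The receptor Gucy2c had 131 RPKM in wild-type villus and 49.4 RPKM in ISC. It had 91.0 RPKM in Eed-null villus and 113 RPKM in wild-type villus of the other table, and the authors' deposited table gives q = 0.546. Cftr, the chloride channel that guanylin signalling opens, was the gene that was lower, with 24.0 RPKM in wild-type villus and 53.1 RPKM in ISC.

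Retnlb and Clca3 are known to be induced in goblet cells by the type 2 cytokines interleukin-4 and interleukin-13, and genes of that axis were described from a list of 13. Of the 8 tested in Eed-null villus, 1 was called higher and 1 lower, beside 7.9% and 3.46% of all tested genes, so nothing is read from these counts. Ang4, an antibacterial ribonuclease of Paneth and goblet cells, had 1852 RPKM in Eed-null villus and 903 RPKM in wild-type villus, and the authors' deposited table gives q = 0.00202. Il13ra1, a receptor subunit, was lower, with 34.9 RPKM in Eed-null villus and 56.4 RPKM in wild-type villus, and the authors' deposited table gives q = 0.0262. The receptor Il4ra had 20.1 RPKM in Eed-null villus and 13.5 RPKM in wild-type villus, and its signal transducer Stat6, whose locus entry also covers a second gene, had 27.9 RPKM in Eed-null villus and 40.0 RPKM in wild-type villus. The authors' deposited table gives q = 0.0862 for Il4ra and q = 0.179 for Stat6. Il25, the tuft cell cytokine, had 0.684 RPKM in Eed-null villus and 0.589 RPKM in wild-type villus, and Il4, Il5 and Il13 are listed at 0 in both villus groups. In wild-type villus against ISC, 7 of 9 tested genes were called higher and 2 lower, beside 30.5% and 32.3% of all tested genes. The 2 lower were Ang4 and Itln1, which also stand among the Paneth cell markers.

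Counts of called markers of other cell types in Eed-null villus stand beside 7.9% of all tested genes called higher and 3.46% called lower, and several lie near those shares. Of 23 tested enteroendocrine markers 6 rose and 1 fell, with a median log2 ratio of 0.57 and a summed level of 898 RPKM in Eed-null villus and 558 RPKM in wild-type villus. The hormone gene Gip was the most abundant of these markers in both groups and weighs most in that sum. It rose to 384 RPKM in Eed-null villus, against 188 RPKM in wild-type villus. Pax6, a transcription factor gene that shares its locus entry with another, had 4.26 RPKM in Eed-null villus and 0.333 RPKM in wild-type villus. The prohormone-processing genes Pcsk1 and Cpe rose 2.77-fold and 2.73-fold, and the proglucagon gene Gcg fell to 2.58 RPKM in Eed-null villus, against 9.53 RPKM in wild-type villus. Chga, the chromogranin, had 34.7 RPKM in Eed-null villus and 26.9 RPKM in wild-type villus and was not called. All 20 Paneth cell markers were tested, and 3 rose and 3 fell, with a summed level of 10580 RPKM in Eed-null villus and 9928 RPKM in wild-type villus. Mptx2, Ang4 and Pnliprp2 were the markers that rose, and the defensin genes Defa20, Defa21 and Defa22, whose near-identical relatives may share reads, were those that fell. By the authors' q no tuft cell marker of 14 was called and 1 had an unadjusted p under 0.05, with a median log2 ratio of 0.24. Of 21 tested enterocyte markers 1 rose and 3 fell, with a median log2 ratio of -0.26. Ada was the marker that rose, and Lct, Ace and Treh were those that fell. Alpi had 633 RPKM in Eed-null villus and 986 RPKM in wild-type villus and was not called. Sis had 733 RPKM in Eed-null villus and 1127 RPKM in wild-type villus and was not called either. Of 17 tested stem cell markers 2 rose and 1 fell, and the one that fell, Olfm4, had 40.6 RPKM in Eed-null villus and 94.5 RPKM in wild-type villus. Of the markers that rose, Cd44 had 5.91 RPKM in Eed-null villus and 1.38 RPKM in wild-type villus. Sox9, the other, had 4.10 RPKM in Eed-null villus and 1.99 RPKM in wild-type villus. Of 11 tested leukocyte markers 1 rose and 1 fell, and 7 ratios were below 1, with a median log2 ratio of -0.59. The marker that rose, Gata3, had 0.706 RPKM in Eed-null villus and 0.0416 RPKM in wild-type villus. The granzyme gene Gzmb fell to 10.6 RPKM in Eed-null villus, against 18.7 RPKM in wild-type villus, and Gzma had 37.6 RPKM in Eed-null villus and 59.9 RPKM in wild-type villus and was not called. The part of these cell types in the values of the goblet cell products was not tested.

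In the sorted ISC, markers of other secretory cells were present. Counts called between wild-type villus and ISC stand beside 30.5% of all tested genes called higher in wild-type villus and 32.3% called lower. Paneth cell markers were called lower in wild-type villus in 15 of 17 tested cases, and Mmp7 had 56.3 RPKM in wild-type villus and 321 RPKM in ISC. The uroguanylin gene Guca2b, which also stands in the Paneth list and enters its sums, was the 1 called higher. Lyz1, Defa17 and Defa24 are listed at 0 in ISC with a status that marks too much data at the locus and were not tested. Over the 17 tested Paneth markers the summed level was 6084 RPKM in wild-type villus and 13139 RPKM in ISC. Of 25 enteroendocrine markers 6 were called higher in wild-type villus and 13 lower, beside 30.5% and 32.3% of all tested genes, with Chga at 31.3 RPKM in wild-type villus and 46.0 RPKM in ISC. Tuft cell markers were called higher in wild-type villus in 12 of 14 cases and lower in 1, with Dclk1 at 4.04 RPKM in wild-type villus and 0.591 RPKM in ISC. All 21 tested enterocyte markers were called higher and all 19 tested stem cell markers lower in wild-type villus, and the leukocyte marker Ptprc had 3.30 RPKM in wild-type villus and 0.610 RPKM in ISC. Whether the goblet cell RNA of the ISC libraries came from stem cells or from other sorted cells was not tested.

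**Figure D5:**
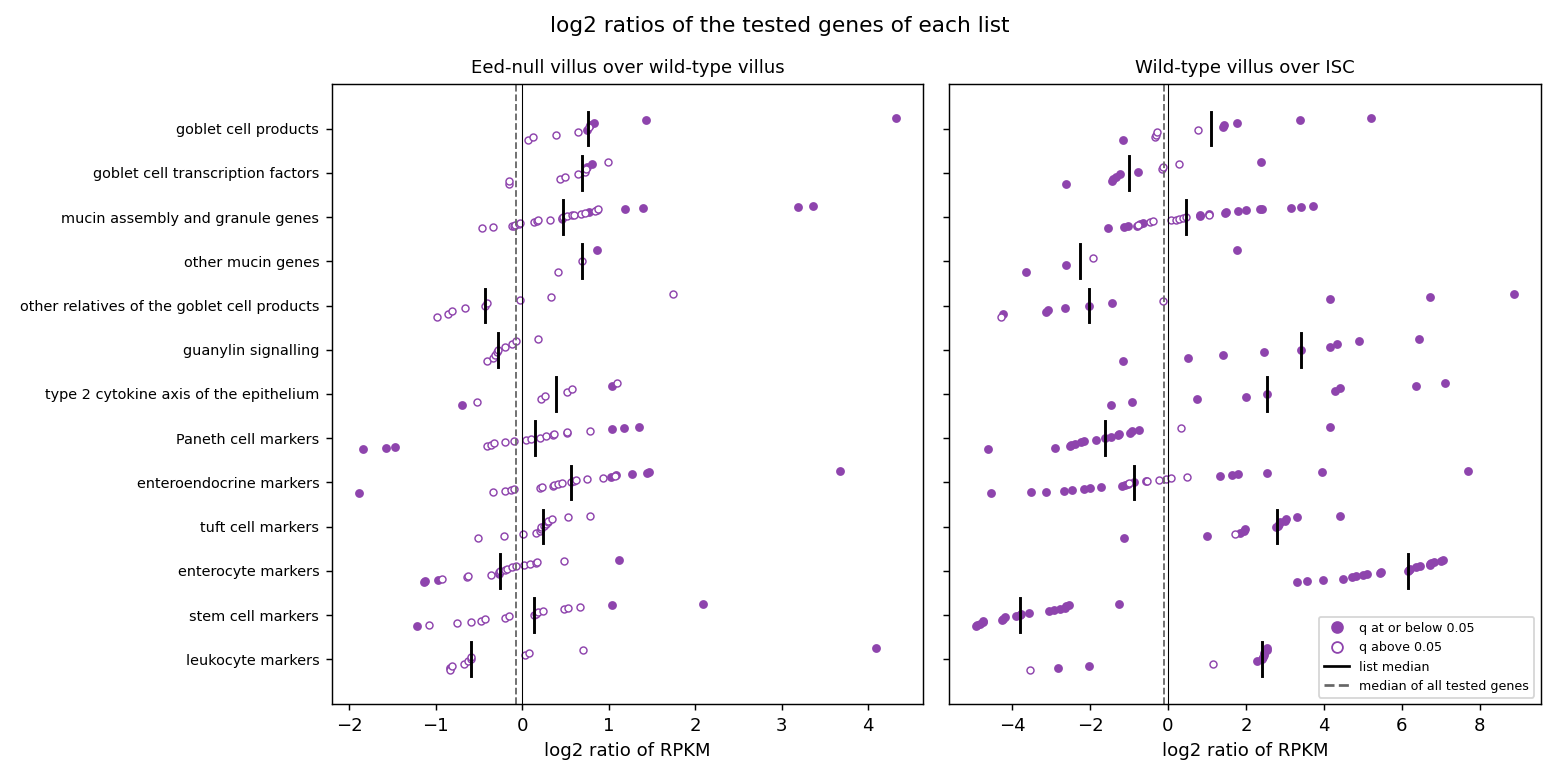
log2 ratio of RPKM of each tested gene of the 13 lists, Eed-null villus over wild-type villus (left) and wild-type villus over ISC (right), with filled points for q at or below 0.05, a bar at each list's median and a dashed line at the median of all tested genes. Genes listed at 0 in a group are left out. On the left the medians of the goblet cell products (0.76), their transcription factors (0.69) and enteroendocrine markers (0.57) lie above that of all tested genes, as do 9 of the 13 medians in all, and on the right the medians of the goblet cell products (1.10) and their transcription factors (-0.99) lie on opposite sides of it.

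Genes with the most similar pattern were sought among the 5504 genes that were tested in both comparisons and reached 10 RPKM in wild-type villus, by the distance between their pairs of log2 ratios. The 3 nearest to Muc2 were Klk1, at a distance of 0.05, Traf4, a signalling adaptor, and Tmsb4x, thymosin beta 4. Nearest to Guca2a were Rassf1, Phgr1 and Krt8, a simple epithelial keratin, all within a distance of 0.0303. For Retnlb, which at 8.90 RPKM lay below that level itself, the nearest of the genes searched was Mptx1, a pentraxin, at a distance of 1.81, with 686 RPKM in Eed-null villus and 119 RPKM in wild-type villus, followed by the epoxide hydrolase Ephx1 and the cyclin Ccng1. Gcnt1, below that level too and so not searched, lay nearer to Retnlb, with log2 ratios of 3.36 and 3.15 beside the 4.33 and 1.77 of Retnlb. These distances rest on 2 ratios that share the wild-type villus libraries.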

How the data were processed

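Libraries of polyadenylated RNA from 9 samples, 3 in each of 3 groups, gave single-end reads of 75 bp with a kit that does not mark strand, per the labels' protocols. Reads of overlapping genes on opposite strands therefore cannot be told apart. The 14 chromatin libraries of the series were not used here. Expression was deposited by the authors as 2 tables with 1 RPKM per group and gene, a unit named per the file headers of the villus and ISC table. The header of the Eed-null table gives no unit. Its wild-type villus values equal those of the other table divided by a constant 1.16 (range 1.16192 to 1.16194 over 10353 genes), from which RPKM was inferred, so the tables were scaled separately and no test spans both. Each p-value and q-value is the authors' own, per the file headers, and q could be recomputed from p over the tested genes by Benjamini-Hochberg adjustment to within 8.02e-05. Tools named by the submitters' processing notes include TopHat2 2.0.6, Cufflinks 2.0.1 and Cuffdiff, with build mm9 and without roles. The annotation and the kind of test are not given in the sources used here.

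Folds are ratios of deposited RPKM with no pseudocount, with none against a listed 0. Since replicates are not printed one by one, no model was fitted; the labels describe them as biological replicates. Calculations used Python 3.11.15, pandas 2.3.3, numpy 2.4.6 and scipy 1.17.1, with figures in matplotlib 3.10.9, and the adjustment was tested on simulated data. The 10 genes, the 13 lists and the tests were chosen with earlier results of these data known. Named genes were drawn from the 10, Eed, the 3 nearest genes of Muc2, Retnlb and Guca2a, and the lists. Of each list, up to 4 called members per comparison with the largest ratios could be named. So could any member of the lists of transcription factors, relatives, guanylin signalling and type 2 axis. Lgr5, Olfm4, Alpi, Sis, Mmp7, Lyz1, Chga, Dclk1 and Ptprc were also set to be named. Not every gene that these rules allow is named. Gcnt3, Sytl2, Ern2, Muc5ac, Muc5b, Muc6, Muc13 in Eed-null villus, Gcg, Gip, Defa17, Defa24, Gzma, Il4, Il5, Il13 and the neighbouring genes were named after their values were seen. Alternatives were a stricter q, a least fold, a least RPKM, leaving out shared locus entries, a pseudocount and another centring.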

Additional observations from a re-analysis of the deposited data

How the results depend on the processing

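With at least 2-fold required besides q, 2 of the 10 genes were called higher in Eed-null villus in place of 5, Spink4 and Retnlb, since Muc2, Agr2 and Klk1 lay below that fold. With q at or below 0.01 Muc2 alone lost its call, leaving 4. The other counts of called goblet cell products, with the least fold, the stricter q, a minimum of 1 RPKM in a group with q recomputed, or shared locus entries left out, were the same as those reported. All 20 log2 ratios kept their sign with a pseudocount of 1 RPKM and with centring on the median of genes at 1 RPKM or more. Over all genes, 989 were called higher in Eed-null villus, against 727 at q of 0.01 or below and 808 with the least fold. In the lower direction 433 were called, against 258 at q of 0.01 or below and 215 with the least fold. No paired analysis was possible because the tables hold 1 value per group, and for the same reason leaving out a replicate was not run. The lack of values per library leaves the authors' q as the only measure of error.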

Other observations

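The surroundings of the goblet cell products on build mm9 held 56 other genes within 100 kb. Some of these share a locus entry with each other, so the counts of genes hold repeated loci. In Eed-null villus 3 of them were called higher and 1 lower, 29 were tested and not called, and 23 were not tested. Of the 33 tested, these calls are near the 7.9% and 3.46% of all tested genes called higher and lower, so nothing is read from the count and the genes below are given as values. Near Retnlb there were 3 such genes and none was tested, and the 5 tested near Spink4 had q between 0.0777 and 0.928 in the authors' deposited table. The gene 2410002F23Rik, 17.1 kb from Klk1, shares its locus entry with small RNA genes. It had 15.2 RPKM in Eed-null villus and 6.60 RPKM in wild-type villus, and the authors' deposited table gives q = 0.000176. The gene 9530053A07Rik, 8.60 kb from Fcgbp, had 6.73 RPKM in Eed-null villus and 4.10 RPKM in wild-type villus, and the authors' deposited table gives q = 0.0368. Near Zg16, Sez6l2 was called higher, with 1.27 RPKM in Eed-null villus and 0.556 RPKM in wild-type villus, and Maz was called lower, with 9.92 RPKM in Eed-null villus and 18.9 RPKM in wild-type villus. These genes were chosen after their values were seen.

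Between wild-type villus and ISC, 35 of the 56 neighbours were tested, and 15 were called higher and 9 lower, beside 30.5% and 32.3% of all tested genes. Beside Clca3, Clca6 and the gene AI747448 were both higher in wild-type villus, AI747448 with 713 RPKM in wild-type villus and 89.4 RPKM in ISC. Beside Agr2, the tetraspanin gene Tspan13 was higher, with 94.0 RPKM in wild-type villus and 25.2 RPKM in ISC, while the other tested neighbours, Agr3 and Bzw2, were lower and Agr2 itself was not called. Bzw2 had 12.9 RPKM in wild-type villus and 63.7 RPKM in ISC.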
